A study of Mus musculus with 24 samples.

Results

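Pyruvate dehydrogenase kinase 4 (Pdk4) and 8 other genes of the pyruvate dehydrogenase complex were followed in the gastrocnemius muscle of 24 mice, by 17 of the 41174 different probes of a whole genome array. The 9 genes were taken as a fixed list, chosen with earlier results of these data known. They were the kinases Pdk1, Pdk2, Pdk3 and Pdk4, the catalytic and core subunits Pdha1, Pdhb, Dlat and Dld, and the binding protein Pdhx. For 8 of the 9 genes, 15 probes were bright enough to be compared, among 15958 such probes on the array, whereas both probes of Pdk3 were too dim. All mice were male C57BL/6N, were 3 months old when the diets began, and received 1 of 3 diets over 8 weeks. The cHF diet (n = 8) was rich in fat, chiefly corn oil, at 35% lipids by weight. In cHF+F (n = 8), an n-3 LC-PUFA concentrate of 46% DHA and 14% EPA took the place of 15% of those lipids. In cHF+ROSI (n = 8), rosiglitazone was mixed into the cHF food at 10 mg per kg. Before dissection, every mouse was fasted for 10 hours and then offered Chow overnight, so that no group was sampled while eating its high-fat diet. Each mouse had an array of its own, in which its RNA (Cy5) was read against a common pool of RNA from these diets and from a higher rosiglitazone dose that is not analysed here (Cy3), and all values below are log2 ratios of the mouse over that pool unless stated otherwise.

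The pyruvate dehydrogenase complex of the mitochondrial matrix turns pyruvate into acetyl-CoA and so lets carbon from glucose enter the citric acid cycle. The kinases phosphorylate its E1 component and switch the complex off, and phosphatases switch it on again. In skeletal muscle, Pdk4 is the kinase best known to rise in fasting and with fatty acid supply and to be lowered by feeding and insulin, whereas Pdk2 is the kinase expressed in most tissues. Rosiglitazone is an anti-diabetic drug that activates PPARγ, and n-3 fatty acids are natural ligands of several PPARs.

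All 12 muscle markers examined, such as the creatine kinase and fast myosin genes, were well above background in each group. The arrays of slides 1 to 3 tended to be dimmer (30.4% to 55.1% of spots well above background in Cy5) than those of slides 4 to 8 (50.3% to 61.3%, apart from 1 array). The cHF+ROSI arrays of slides 1 to 3, at 51.3%, 52.6% and 50.8%, lay within the range of slides 4 to 8. The array set apart, that of cHF+ROSI on slide 4, stood far above the rest at 91.1%. Leaving out each mouse in turn, that of this array included, gave Pdk4 differences from cHF of -1.24 to -0.91 with n-3 LC-PUFA and of -0.98 to -0.68 with rosiglitazone. Each of the 8 slides held 1 mouse of each diet, in the same place on every slide, so that the place of an array and the diet cannot be told apart.

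Pdk4 was lower on average in the muscle of both supplemented groups than in the cHF mice, and it was far more uneven among those mice. The Pdk4 probe lies on chromosome 6, at 5433441 to 5433500 on the minus strand of mouse build mm8. It was well above background on 24 of 24 arrays in both channels and saturated on 0. In the cHF mice, the Pdk4 ratio was -0.50 at the lowest, 0.22 at the median and 0.54 at the highest. The highest was from slide 3, the dimmest array of all (30.4% of spots well above background in Cy5), and the next, from slide 6, was 0.51. In the cHF+F mice, the Pdk4 ratio ranged from -2.21 through a median of -1.02 to 0.10. In the cHF+ROSI mice, it ranged from -2.02 through a median of -0.54 to 0.07. The 3 groups overlapped, with 5 of 8 cHF+F mice and 4 of 8 cHF+ROSI mice below the lowest cHF mouse and the others within the range of the cHF group. Without slides 1 to 3, these counts were 4 and 4 of the 5 mice left in each group, but against a higher limit. The lowest cHF mouse was then that of slide 8, at -0.08, in place of that of slide 1, at -0.50. The cHF+ROSI mice of slides 4 and 6 (-0.29 and -0.22) were below the second limit but not the first. Over all 8 slides, a ratio under -1 was found in 4 mice of cHF+F, 2 of cHF+ROSI and 0 of cHF.

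**Figure D1:**
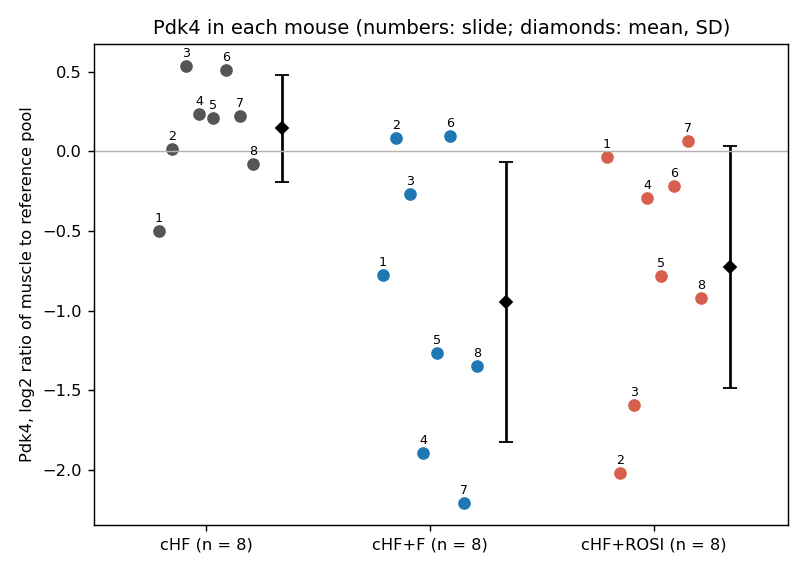
Pdk4 log2 ratio of muscle over the reference pool (y axis) for each of the 24 mice, by diet group (x axis, 8 mice each); points are mice labelled by slide number, and diamonds with bars are the group mean and SD. The cHF mice lie between -0.50 and 0.54, whereas the cHF+F and cHF+ROSI mice reach down to -2.21 and -2.02.

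The mean Pdk4 ratio was 0.14 ± 0.34 (SD, n = 8) in the cHF mice, -0.95 ± 0.88 (SD, n = 8) in the cHF+F mice and -0.73 ± 0.76 (SD, n = 8) in the cHF+ROSI mice. The difference between the cHF+F and cHF mice was -1.09 on the log2 scale, or 2.13-fold, with a 95% interval from -1.74 to -0.45. That between the cHF+ROSI and cHF mice was -0.87, or 1.83-fold, with an interval from -1.52 to -0.22. These comparisons use the same cHF mice, and their intervals rest on 1 spread shared by the 3 groups. In an exact permutation test of the Pdk4 means alone (two-sided, 12870 regroupings), p was 0.0056 for cHF+F against cHF and 0.0075 for cHF+ROSI against cHF. Both were 0.0112 after Benjamini-Hochberg adjustment over the 3 pairs of groups. Pdk4 was chosen with earlier results of these data known, and this adjustment does not cover that choice. Every one of the 8 cHF+F mice, and of the 8 cHF+ROSI mice, was below the cHF mean.

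Across the whole array, the same differences did not pass the correction for 15958 probes. The limma adjusted p was 0.402 for cHF+F against cHF and 0.996 for cHF+ROSI against cHF, and Pdk4 ranked 72 and 152 among all probes by p. Within slides, the cHF+F mouse was below the cHF mouse on 7 of 8 slides (mean difference -1.09 ± 0.89, SD; exact sign-flip p = 0.0156). The cHF+ROSI mouse was also below the cHF mouse on 7 of 8 slides (-0.87 ± 0.88, SD; exact sign-flip p = 0.0234). The exceptions were slide 2 for cHF+F, with a difference of 0.07, and slide 1 for cHF+ROSI, with 0.46. From the Cy5 channel alone, without the pool, the difference for cHF+ROSI was -0.59 and its exact permutation p 0.11, so this call was lost, while that for cHF+F was -0.80. In the Cy3 channel, which held the same pool on every array, Pdk4 signals were 0.28 higher on the cHF+F than on the cHF arrays. On the cHF+ROSI arrays they were 0.26 higher. The SE was 0.18 for both, with a limma p of 0.122 and 0.16 unadjusted and 0.999 and 0.76 adjusted. With the slide as a block, the unadjusted limma p was 0.0622 and 0.0887.

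A direct comparison asked whether Pdk4 differed between both additions. The difference was -0.22, with a 95% interval from -0.87 to 0.42 (exact permutation p = 0.588). The interval holds 0 as well as a 1.83-fold lower level in the cHF+F mice. It rests on 1 spread shared by the 3 groups. Pdk4 varied less in the cHF mice (SD 0.34) than in the cHF+F and cHF+ROSI mice (SD 0.88 and 0.76). The interval is thus likely too narrow for this comparison. Without the arrays of slides 1 to 3 the difference was -0.89, with an exact permutation p of 0.0714 for 5 mice a group. On slides 1 to 3 the cHF+ROSI mice of slides 2 and 3 had the lowest ratios of their group (-2.02 and -1.60), while the cHF+F mice of those slides had ratios of 0.09 and -0.27.

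The spread of Pdk4 among mice of 1 diet was large beside that of other probes. Its SD of 0.88 in the cHF+F mice was exceeded by 51 of 15958 probes (0.32%), and its SD of 0.76 in the cHF+ROSI mice by 72 probes (0.451%). In the cHF mice, the SD of 0.34 was exceeded by 605 probes (3.79%). The median SD of all probes was between 0.13 and 0.15 in the 3 groups.

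The promoter bases of Pdk4 are shown because it is the member whose level varied, and those of Pdk2 because it is the other kinase whose ratios were lowest with rosiglitazone. Both are the 250 bases before the transcription start in RefSeq (GRCm38.p6, minus strand), 5′ to 3′, at chr6:5496279-5496528 for Pdk4 and chr11:95041372-95041621 for Pdk2, of which 2 starts are listed and the upstream one is printed. Capitals mark matches, on either strand, to CCAAT (the CCAAT box), GGGCGG (the GC box bound by Sp1), CACGTG (the E-box), AGGTCA (the core motif of nuclear receptors), GTAAACA (the FOXO motif) or TATAAA (the TATA box), or to the glucocorticoid response element.
Pdk4: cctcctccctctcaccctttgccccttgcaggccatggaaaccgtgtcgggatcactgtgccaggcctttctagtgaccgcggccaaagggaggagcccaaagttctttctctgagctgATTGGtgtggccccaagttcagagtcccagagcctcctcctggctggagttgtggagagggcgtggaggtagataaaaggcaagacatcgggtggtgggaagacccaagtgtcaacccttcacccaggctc
Pdk2: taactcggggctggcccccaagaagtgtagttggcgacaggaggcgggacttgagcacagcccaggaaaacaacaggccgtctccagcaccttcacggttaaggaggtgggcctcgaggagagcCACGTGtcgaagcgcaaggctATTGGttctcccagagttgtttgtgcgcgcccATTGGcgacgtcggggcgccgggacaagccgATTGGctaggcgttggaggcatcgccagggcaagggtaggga
In the Pdk4 window, 1 match was found, to the CCAAT box on the reverse strand, beginning 131 bases before the start, a motif that 33.8% of the 32817 promoters in the table hold. The Pdk2 window held 3 such matches and 1 E-box, which 6.02% of promoters hold. No match to AGGTCA (14% of promoters) or GTAAACA (3.16%) lay in the printed windows, which says only that these letters are absent there.

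Among the other kinases, Pdk2 had lower ratios in the cHF+ROSI mice, by far less than Pdk4. Its ratio was -0.55 at the lowest, -0.11 at the median and 0.08 at the highest in the cHF mice. In the cHF+F mice it ranged from -0.41 through -0.20 to -0.03. In the cHF+ROSI mice it ranged from -0.61 through -0.38 to 0.06. The groups overlapped throughout, although 6 of 8 cHF+ROSI mice were below the cHF mean. The difference from the cHF mice was -0.19 with rosiglitazone (95% interval from -0.38 to -0.0023, unadjusted p = 0.0475, limma adjusted p = 0.996) and -0.08 with n-3 LC-PUFA (interval from -0.27 to 0.11, unadjusted p = 0.41). The unadjusted p for rosiglitazone stayed under 0.05 only when the mouse left out was that of slide 1 of cHF, slide 1 or 8 of cHF+F, or slide 2, 3 or 5 of cHF+ROSI, and ranged from 0.00662 to 0.113 as each mouse was left out (differences from -0.25 to -0.15). Without slides 1 to 3 the difference was -0.33 (unadjusted p = 0.000426, limma adjusted p = 0.252). The direct difference between the cHF+F and cHF+ROSI mice was 0.12 (interval from -0.08 to 0.31), and 0.23 without slides 1 to 3 (unadjusted p = 0.00773, limma adjusted p = 0.72).

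Pdk1, a kinase known as a target of HIF-1 in low oxygen, differed little between the diets by either of its probes. The brighter probe (chromosome 2, 71704602 to 71704661, plus strand of mm8) had median ratios of 0.14 with cHF, 0.09 with cHF+F and 0.23 with cHF+ROSI. Its differences from the cHF mice were -0.08 (interval from -0.26 to 0.11) for cHF+F and 0.03 (from -0.15 to 0.22) for cHF+ROSI. On this probe the mouse of slide 1 had the highest ratio of each group, at 0.74, 0.35 and 0.61, which the dimmer Pdk1 probe did not show (0.02, -0.09 and 0.00022 in the same mice). With the slide as a fixed block, the difference between cHF+F and cHF+ROSI on the brighter probe reached an unadjusted p of 0.0486.

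Pdk3 could not be compared. Its probes, both on the X chromosome, had mean ratios of signal to background of 1.97 and 1.94 in Cy5 and of 1.57 and 1.62 in Cy3, under the minimum of 2, and were well above background in Cy5 on 6 and 19 of 24 arrays. For the second of them, these were 6 mice with cHF, 7 with cHF+F and 6 with cHF+ROSI.

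**Figure D2:**
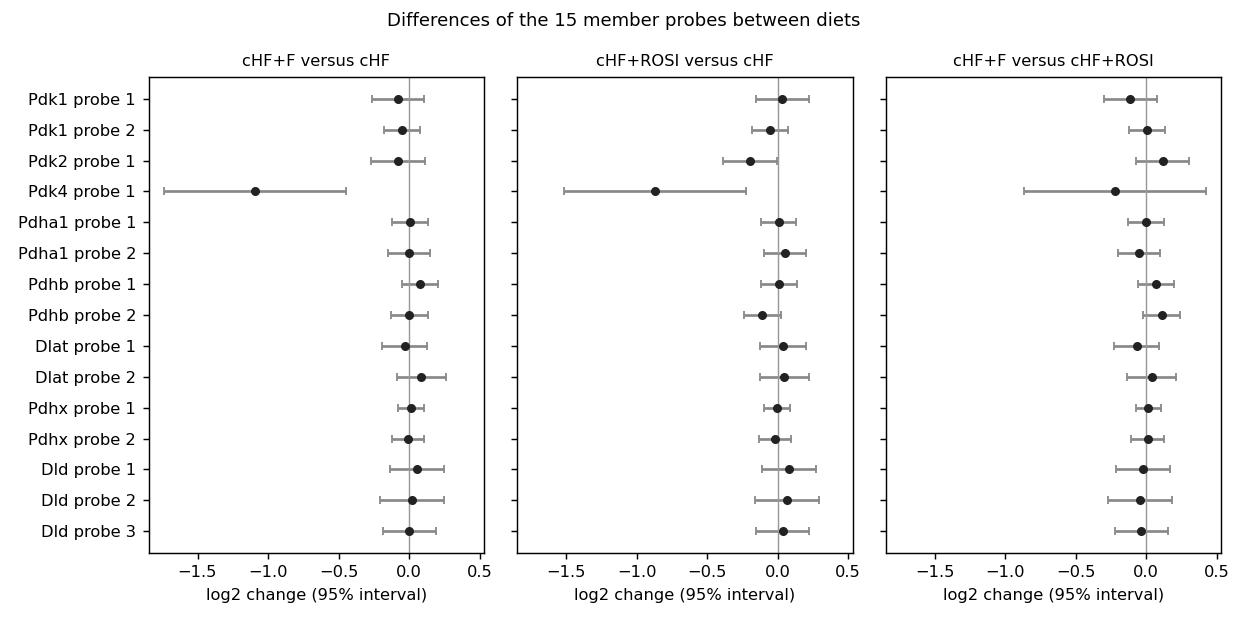
Log2 change (x axis, points) with its 95% interval (bars) for each of the 15 compared probes (y axis), in the 3 comparisons of diets (panels). Pdk4 lies at -1.09 and -0.87 against cHF, whereas the 11 subunit probes lie between -0.11 and 0.09.

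The genes of the enzyme itself stayed close to the cHF level with both additions. Pdha1 and Pdhb encode the alpha and beta subunits of E1, which decarboxylates pyruvate and which the kinases phosphorylate. The brighter Pdha1 probe had ratios from -0.05 through a median of 0.10 to 0.26 in the cHF mice, from -0.14 through 0.12 to 0.28 in the cHF+F mice and from -0.07 through 0.08 to 0.27 in the cHF+ROSI mice. The groups lay on top of each other, and the difference from cHF was 0.0067 for both cHF+F (interval from -0.12 to 0.13) and cHF+ROSI (from -0.12 to 0.13). For Pdhb, the probe with the larger difference had medians of 0.09, 0.13 and 0.0082 in the cHF, cHF+F and cHF+ROSI mice. Its difference from the cHF mice with rosiglitazone was -0.11 (interval from -0.24 to 0.02, unadjusted p = 0.0971), and the other Pdhb probe gave 0.0086 for the same contrast.

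Dlat encodes the E2 component, which carries the acetyl group on its lipoyl domains. Its brighter probe had medians of 0.13 with cHF, 0.04 with cHF+F and 0.19 with cHF+ROSI, and differences from cHF of -0.03 (interval from -0.19 to 0.13) and 0.04 (from -0.12 to 0.20). For Pdhx, the protein that tethers E3 to the E2 core, the brighter probe had the steadiest ratios of the compared member probes. Its SD was 0.06, 0.07 and 0.09 in the cHF, cHF+F and cHF+ROSI mice, beside 0.13, 0.08 and 0.09 for the dimmer Pdhx probe. The differences of the brighter probe from cHF were 0.01 (interval from -0.08 to 0.11) and -0.0021 (from -0.09 to 0.09). Dld encodes E3, the dihydrolipoamide dehydrogenase that the other 2-oxoacid dehydrogenase complexes share. Its 3 probes, which share a transcript, gave differences from cHF of 0.0019 to 0.06 with n-3 LC-PUFA and of 0.04 to 0.08 with rosiglitazone.

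Over the 11 probes of the 5 subunit genes, the change with n-3 LC-PUFA lay between -0.03 and 0.09 and the 95% intervals between 0.868-fold and 1.2-fold of the cHF level. With rosiglitazone the changes lay between -0.11 and 0.08 and the intervals between 0.846-fold and 1.23-fold. A change of the size seen for Pdk4 lies outside each of these intervals. From the Cy5 channel alone, where arrays varied more, the probes of the members other than Pdk4 gave differences up to 0.35 with n-3 LC-PUFA and 0.54 with rosiglitazone, none with an unadjusted p under 0.05. Of the 15 probes of all members, 1 had an unadjusted p under 0.05 in cHF+F against cHF, that of Pdk4, where 6.87% of all probes did. In cHF+ROSI against cHF it was 2 of 15, those of Pdk4 and Pdk2, where 4.71% of all probes did. In cHF+F against cHF+ROSI it was 0 of 15, where 6.65% of all probes did. At an adjusted p under 0.05, limma called 0 of the 15 member probes and 0% of all probes in each comparison. A level at least 1.5-fold lower with an unadjusted p under 0.05 was found for 1 member probe, that of Pdk4, in each comparison with cHF, and for 0.0752% (cHF+F) and 0.0125% (cHF+ROSI) of all probes. Between the supplemented groups it was 0 member probes and 0.119% of all probes. The median difference of the 15 probes was 0.00033 and 0.0086 in the comparisons with cHF, beside 0.00049 and -0.0082 over all probes.

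**Figure D3:**
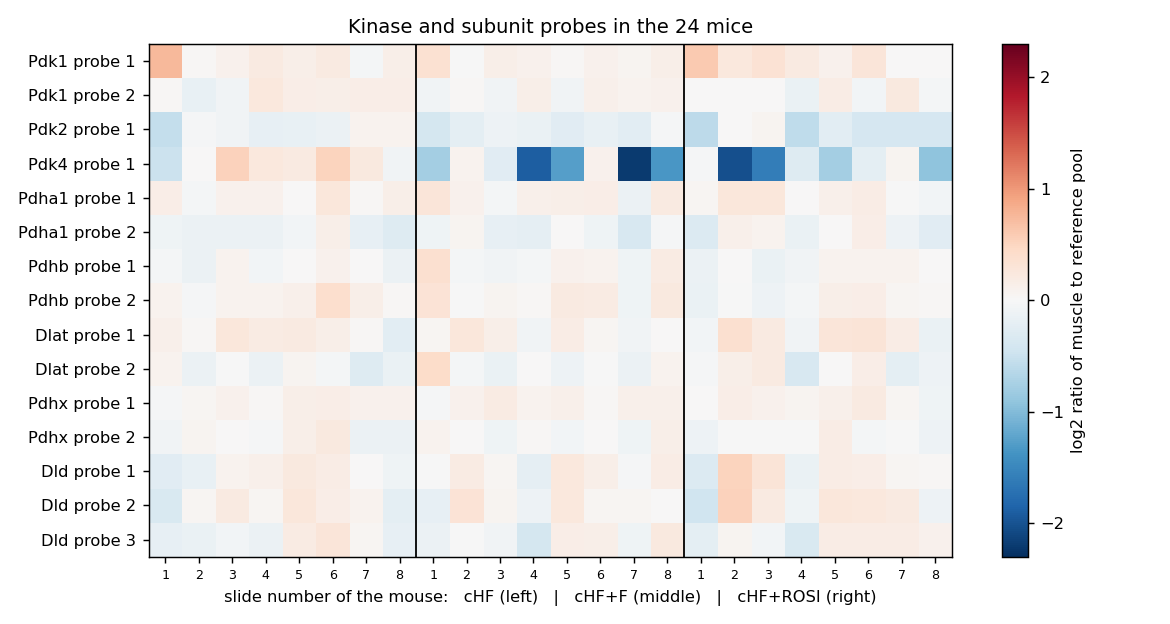
Log2 ratio of muscle over the reference pool (colour) for the 15 compared probes (rows) in the 24 mice (columns, numbered by slide, cHF left, cHF+F middle, cHF+ROSI right). Strong blue, down to -2.21, appears only in the Pdk4 row and in mice of the supplemented groups.

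No relation between Pdk4 and another member passed the adjustment across all mice. Over the 24 mice, Pearson's r of Pdk4 with the brightest probe of Pdk1, Pdk2, Pdha1, Pdhb, Dlat, Pdhx and Dld lay between -0.10 and 0.10, and Spearman's rho between -0.14 and 0.21. In permutation tests with 100000 resamples, the lowest p of these r was 0.631 and each was 0.885 after adjustment over 9 relations. The other 2 relations were those with a score of 8 slow fibre genes (r = 0.21, rho = 0.30, permutation p = 0.334 and 0.151) and with the share of Cy5 spots well above background (r = -0.13, rho = 0.00, permutation p = 0.544 and 1). With slide means removed, the relation with that share had r = -0.21 and rho = -0.55 (permutation p = 0.334 and 0.00655, adjusted p = 0.634 and 0.0589). Within slides, Pdk4 thus tended to be lower on brighter arrays, but the differences between diets remain in this setting. With group means removed in place of slide means, the same relation had r = 0.01 and rho = -0.03 (permutation p = 0.952 and 0.871). Without the mice farthest from the median Pdk4 value (slide 7 of cHF+F and slide 2 of cHF+ROSI), r with the members lay between -0.27 and 0.20, and with slide means removed between -0.30 and 0.01. With group means removed, r was -0.33 for Pdk2 and 0.0067 for the slow fibre score. Within single groups of 8 mice, r with Pdk2 was 0.50 with cHF, -0.04 with cHF+F and -0.87 with cHF+ROSI, and r with Dld was 0.87, 0.35 and -0.58. The relation with Dld within cHF passed the adjustment for r (adjusted permutation p = 0.0364) but not for rho (0.67, adjusted permutation p = 0.343). The sign of both relations thus differed between groups, a difference that was not tested.

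Of the slow fibre genes, 7 of 8 had lower ratios in the cHF+F than in the cHF mice, with a median change of -0.43. An unadjusted p under 0.05 was found for 3 of them, where 49.7% of all probes were lower and 4.03% lower with such a p. This list is given beside Pdk4 because of these low ratios. It was chosen with earlier results of these data known, so its counts are descriptions and not a test. In the cHF+ROSI mice, 5 of 8 slow fibre genes were lower than in cHF, with a median of -0.23 and 0 with such a p. There, 54.4% of all probes were lower and 3% lower with such a p. The same shares of all probes stand beside the counts of lower genes that follow. Markers of endothelium were lower for 5 of 5 genes in both comparisons with cHF (medians -0.12 and -0.17), with an unadjusted p under 0.05 for 2 of them with n-3 LC-PUFA and 3 with rosiglitazone. Those of macrophages were lower for 5 of 5 genes in both (medians -0.13 and -0.08), with such a p for 1 and 0. The general muscle markers were lower for 11 of 12 genes with rosiglitazone (median -0.13) and for 3 of 12 with n-3 LC-PUFA (median 0.09), and 12 of 12 were higher in cHF+F than in cHF+ROSI (median 0.16), none with such a p. The adipocyte score (the mean ratio of its genes) ranged from -1.06 to 0.74 with cHF, from -1.44 to 1.09 with cHF+F and from -0.97 to 0.37 with cHF+ROSI, with 6 of 7 of its genes well above background. Liver markers were higher than in cHF for 6 of 6 compared genes with n-3 LC-PUFA (median 0.40) and with rosiglitazone (median 0.66), and testis markers for 3 of 3 (medians 0.10 and 0.73). Such a p was found for 3 of the liver and 3 of the testis genes with rosiglitazone and for 0 with n-3 LC-PUFA. Of all probes, 4.71% and 6.87% had such a p in either direction in these 2 comparisons. Both scores were uneven among the cHF+ROSI mice. The liver score ranged from -2.10 to -0.44 with cHF, from -1.39 to 0.66 with cHF+F and from -1.88 to 1.26 with cHF+ROSI. That of testis ranged from -0.91 to -0.23, from -0.92 to 0.72 and from -0.88 to 2.49 in the same order. For blood, 2 of 2 compared genes were lower with rosiglitazone (median -0.40) and their change with n-3 LC-PUFA had a median of -0.02. The part of these genes in the Pdk4 result was not tested apart from the slow fibre score above, and in whole muscle fewer cells of a type and less RNA per cell cannot be told apart.

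The enzymes that reverse the kinases or lipoylate the complex gave 0 calls. Of 6 genes for phosphatases and lipoylation, 4 were compared, and 0 had an unadjusted p under 0.05 in any of the 3 comparisons. Pdp1, the calcium-activated phosphatase that reverses the action of the kinases, had ratios from -0.50 through a median of 0.01 to 0.23 in the cHF mice, from -0.45 through 0.08 to 0.41 in the cHF+F mice and from -0.06 through 0.27 to 0.35 in the cHF+ROSI mice. Its change was 0.20 with rosiglitazone (SE 0.11, limma adjusted p = 0.996) and 0.05 with n-3 LC-PUFA (SE 0.11). The lipoylation enzymes Lipt1 and Lipt2 had log2 differences of -0.06 and -0.06 with n-3 LC-PUFA and of -0.08 and -0.05 with rosiglitazone. Between the supplemented groups, the differences of Pdp1, Lias and Lipt1 were -0.15, -0.08 and 0.02.

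Genes that supply or use pyruvate were compared as a list of 13. In cHF+F against cHF, 9 were higher and 4 lower, with a median change of 0.02, and 0 had an unadjusted p under 0.05. In cHF+ROSI against cHF, 3 were higher and 10 lower, with a median of -0.05 and again 0 with such a p. The smallest p-values in these comparisons belonged to the lactate and pyruvate carrier Slc16a3 (0.12), the alanine aminotransferase Gpt2 (0.09) and malic enzyme Me1 (0.07) with n-3 LC-PUFA, and to citrate synthase Cs (-0.23), pyruvate kinase Pkm (-0.14) and Me1 (0.11) with rosiglitazone, the values being log2 changes. Pkm was the 1 gene of the list with an unadjusted p under 0.05 between the supplemented groups, 0.18 higher in the cHF+F than in the cHF+ROSI mice (SE 0.08, limma adjusted p = 0.73). Slc16a3 and Cs were 0.21 and 0.18 higher in the same comparison, with SE of 0.11 and 0.12.

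The related 2-oxoacid dehydrogenases, which use the same E3, had 7 of 9 genes compared and 0 with an unadjusted p under 0.05 in any comparison. Their median changes were 0.0062 with n-3 LC-PUFA and -0.07 with rosiglitazone. The 3 smallest p-values with n-3 LC-PUFA were those of Bckdha, Dbt and Bckdk, of the branched-chain complex and its kinase, at -0.08, 0.09 and -0.04. With rosiglitazone they were those of Dlst, Dbt and Bckdha, at -0.11, 0.11 and -0.07. Between the supplemented groups they were those of Dlst, Ppm1k and Ogdh, at 0.14, 0.08 and 0.07.

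Among 19 genes known to control Pdk transcription, 16 were compared and 0 was called. With n-3 LC-PUFA, 9 were higher and 7 lower, of which 3 and 1 had an unadjusted p under 0.05, where 6.87% of all probes had such a p in either direction and 4.03% were lower with one. Rxrg, a retinoid X receptor that pairs with PPARs, had ratios from -0.66 through a median of -0.50 to -0.06 in the cHF mice and from -0.37 through -0.17 to 0.55 in the cHF+F mice. Its change was 0.35 (SE 0.11, limma adjusted p = 0.435), and the groups overlapped. Lpin1, a lipid phosphatase and co-activator, had a difference of 0.25 (SE 0.11, adjusted p = 0.639) and the transcription factor Cebpb one of -0.33 (SE 0.12, adjusted p = 0.546).

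With rosiglitazone, Pparg, the receptor for the drug, was the 1 of 16 regulators with an unadjusted p under 0.05 (4.71% of all probes). Its ratios ranged from -0.39 through -0.31 to 0.18 in the cHF mice and from -0.11 through 0.0064 to 0.39 in the cHF+ROSI mice. The change was 0.24 (SE 0.09, limma adjusted p = 0.996), and Pparg is also a marker of fat cells. The next smallest p-values were those of the oestrogen-related receptors Esrrg (-0.12) and Esrra (-0.08). Between the supplemented groups, Lpin1 (0.34), Rxrg (0.27) and Pparg (-0.20) had an unadjusted p under 0.05, the values being log2 changes of cHF+F over cHF+ROSI, with limma adjusted p of 0.558, 0.688 and 0.744.

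Muscle genes known to respond to fasting and PPAR activation tended to the same side as Pdk4 in both comparisons with cHF. Of 20 such genes, 19 were compared. With n-3 LC-PUFA, 17 were lower and 2 higher, with a median change of -0.15 (49.7% of all probes were lower, with a median of 0.00049), and 3 had an unadjusted p under 0.05, where 4.03% of all probes were lower with such a p. With rosiglitazone, 16 were lower and 3 higher, with a median of -0.14 (54.4% of all probes were lower, and 11 of 12 general muscle markers, with a median of -0.13), and 5 had an unadjusted p under 0.05, where 3% of all probes were lower with such a p. Between the supplemented groups, 9 were lower and 10 higher, and 1 was lower with such a p (2.7% of all probes, with 46.1% lower at any p). The number of called genes was 0 in each comparison, and both counts rest on the same cHF mice. From the Cy5 channel alone, 13 of 19 were lower in each comparison.

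Acot1, an acyl-CoA thioesterase, had the smallest p of the list with n-3 LC-PUFA. Its ratios ranged from -0.17 through a median of 0.22 to 0.55 in the cHF mice, from -0.66 through -0.38 to 0.26 in the cHF+F mice and from -0.55 through -0.05 to 0.64 in the cHF+ROSI mice. The change with n-3 LC-PUFA was -0.55 (SE 0.15, limma adjusted p = 0.368). The fatty acid transporter Cd36 had a difference of -0.36 (SE 0.16, adjusted p = 0.671) and Mlycd, which removes the malonyl-CoA that blocks fatty acid entry into mitochondria, one of -0.26 (SE 0.11, adjusted p = 0.639).

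With rosiglitazone, the smallest p-values were those of Trim63, Cpt1b and Fbxo32. Trim63 and Fbxo32 encode muscle ubiquitin ligases that rise in atrophy and fasting, and Cpt1b the carnitine palmitoyltransferase of muscle. Trim63 had ratios from -0.20 through 0.13 to 0.47 in the cHF mice and from -0.66 through -0.23 to 0.05 in the cHF+ROSI mice, a change of -0.42 (SE 0.13, limma adjusted p = 0.98). Fbxo32 had a difference of -0.58 (SE 0.22) and Cpt1b one of -0.20 (SE 0.07), both with an adjusted p of 0.996. In cHF+F against cHF+ROSI, the smallest p-values were those of Plin2, a lipid droplet protein (-0.32, SE 0.11), Trim63 (0.29, SE 0.13) and Acot1 (-0.29, SE 0.15), with limma adjusted p of 0.633, 0.733 and 0.764.

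**Figure D4:**
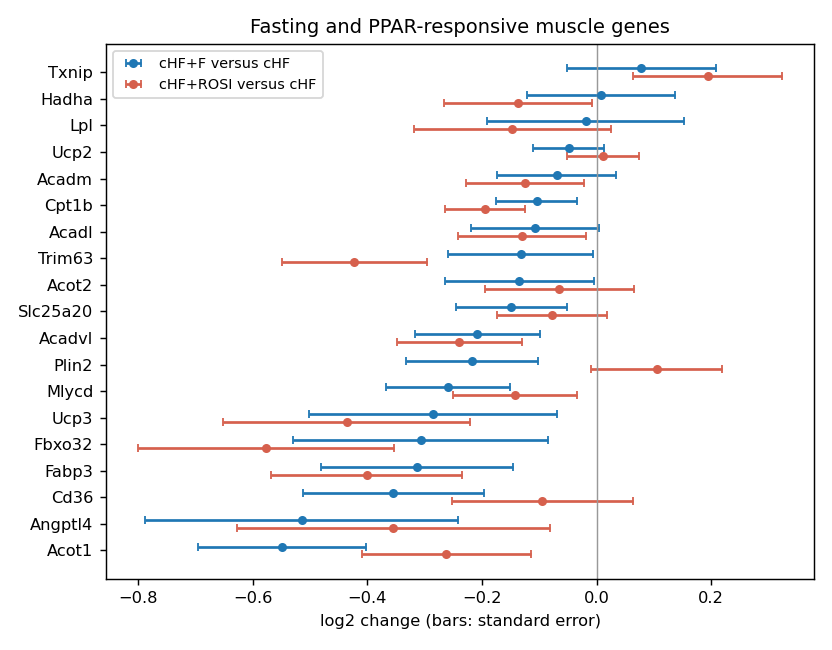
Log2 change against cHF (x axis, points) with its standard error (bars) for 19 fasting and PPAR-responsive muscle genes (y axis), with n-3 LC-PUFA (blue) and rosiglitazone (red). With n-3 LC-PUFA 17 and with rosiglitazone 16 of the 19 points lie below 0, and both comparisons share the 8 cHF mice.

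To see which genes varied with Pdk4 from mouse to mouse, group means were removed and 10594 genes were ranked by Pearson's r with Pdk4 over the 24 mice. The r had a median of -0.02 over all genes, with 90% between -0.35 and 0.31, and exceeded 0.5 for 0.406% of them. The 5 genes most like Pdk4 were Tmem140 (r = 0.77), Gabarapl1 (0.77), Mlycd (0.68), Lamtor3 (0.66) and Acsl1 (0.64). Gabarapl1 is an autophagy gene of the ATG8 family, Acsl1 an acyl-CoA synthetase that activates fatty acids, Lamtor3 a scaffold of the lysosomal mTORC1 and MAPK pathways, and Tmem140 a transmembrane protein. The genes share the arrays, their depth and the pool with Pdk4, and the ranking was made on these mice, so the r are descriptions.

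Tmem140 had ratios from 0.06 through a median of 0.23 to 0.50 in the cHF mice, from -0.91 through -0.32 to 0.49 in the cHF+F mice and from -0.40 through -0.16 to 0.46 in the cHF+ROSI mice. Within the groups its r with Pdk4 was 0.68, 0.90 and 0.58. Gabarapl1 ranged from -0.24 through 0.17 to 0.36, from -0.88 through -0.27 to 0.25, and from -0.76 through -0.07 to 0.41 in the same order. Its r with Pdk4 was 0.81 with cHF+F and 0.95 with cHF+ROSI but -0.13 in the cHF mice, in which Pdk4 varied least. For Mlycd, r was -0.03, 0.71 and 0.85 in the 3 groups, and for Acsl1 0.58, 0.81 and 0.65. With n-3 LC-PUFA, the log2 difference from cHF was -0.44 for Tmem140, -0.36 for Gabarapl1, -0.30 for Acsl1 and -0.26 for Mlycd, each with an unadjusted p under 0.05, and -0.01 for Lamtor3. With rosiglitazone the differences in the same order were -0.29, -0.28, -0.21, -0.14 and -0.03, none with such a p. With the slide means removed as well, r with Pdk4 was 0.83 for Tmem140, 0.83 for Gabarapl1, 0.81 for Mlycd, 0.68 for Lamtor3 and 0.65 for Acsl1. From the Cy5 channel alone, r was 0.70, 0.63, 0.41, -0.07 and 0.52, so that Lamtor3 lost its place.

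**Figure D5:**
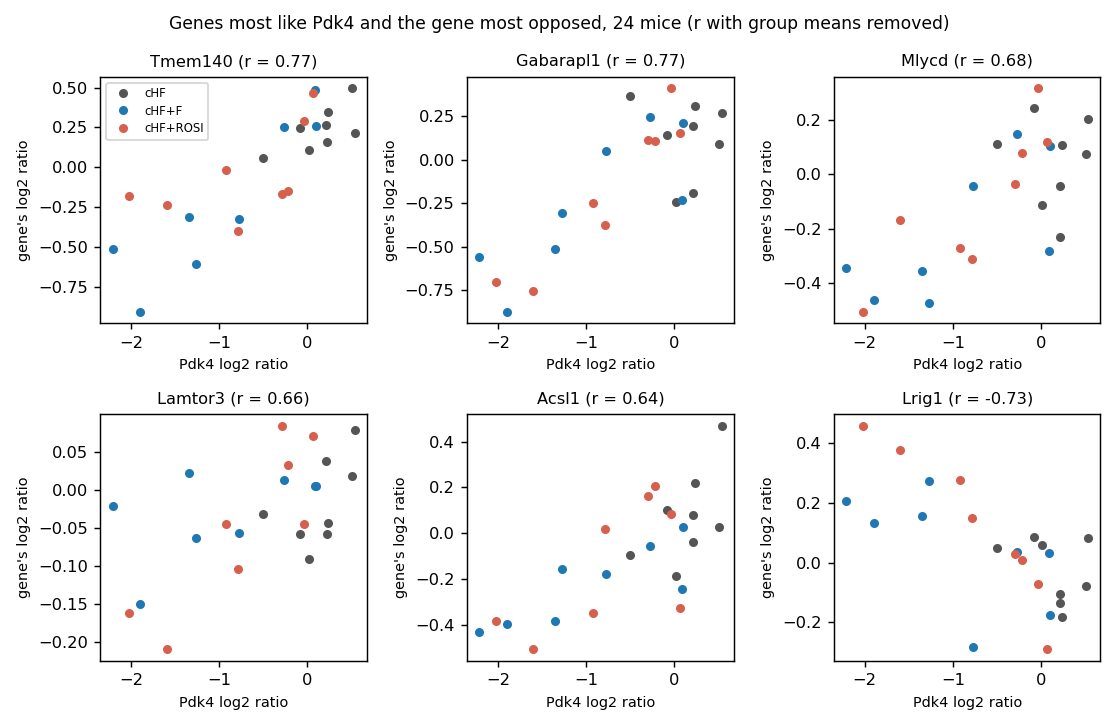
Log2 ratio of the 5 genes most like Pdk4 and of the most opposed, Lrig1 (y axes), against the Pdk4 log2 ratio (x axes) in the 24 mice, coloured by diet; r is Pearson's, with group means removed. The supplemented mice with Pdk4 under -1 have low Tmem140 and Gabarapl1 and high Lrig1, and the y scales differ between panels.

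The promoters of the pair of genes most like Pdk4 are shown for comparison with that of Pdk4 above, as the 250 bases before the RefSeq start on the plus strand (GRCm38.p6), at chr6:34862896-34863145 for Tmem140 and chr6:129532942-129533191 for Gabarapl1, with the same motifs in capitals.
Tmem140: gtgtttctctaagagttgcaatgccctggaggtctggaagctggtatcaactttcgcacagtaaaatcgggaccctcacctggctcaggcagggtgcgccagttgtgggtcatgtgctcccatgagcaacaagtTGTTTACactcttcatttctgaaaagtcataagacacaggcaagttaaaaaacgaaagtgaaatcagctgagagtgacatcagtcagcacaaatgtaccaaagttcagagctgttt
Gabarapl1: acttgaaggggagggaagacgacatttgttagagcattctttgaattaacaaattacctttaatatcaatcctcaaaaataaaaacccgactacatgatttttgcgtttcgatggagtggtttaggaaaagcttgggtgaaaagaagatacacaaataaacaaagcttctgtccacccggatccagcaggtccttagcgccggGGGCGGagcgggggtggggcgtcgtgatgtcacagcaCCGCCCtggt
Tmem140 held 1 match to the FOXO motif, on the reverse strand beginning 116 bases before the start, and Gabarapl1 held 2 GC boxes, a motif present in 32.7% of promoters. Neither of these 2 windows shared a searched motif with the Pdk4 window. Among the other genes most like Pdk4, Mlycd held 3 matches to the CCAAT box, as found for Pdk4. Acsl1 held 0 such matches before the first of its listed starts and 2 before the second. The CCAAT box is present in 33.8% of promoters. Lamtor3 is not in the table.

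The 5 genes most opposed to Pdk4 were Lrig1 (r = -0.73), a negative regulator of growth factor receptors, 4930544O15Rik (-0.72), Cacng6 (-0.64), a calcium channel subunit of muscle, Cptp (-0.61), a ceramide phosphate transfer protein, and Adcy9 (-0.61), an adenylyl cyclase. Their changes against cHF lay between -0.09 and 0.15, with no unadjusted p under 0.05. With median centring in place of loess, r was 0.11 for Lrig1, 0.31 for Cacng6 and 0.19 for Adcy9, so the opposed side of the ranking turned its sign with the normalization for these 3 genes.

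The fasting and PPAR-responsive list lay towards Pdk4 in this ranking. Of its 19 genes, 17 had an r above 0, with a median of 0.31 and a range from -0.11 (Hadha) to 0.68 (Mlycd). The 5 subunit genes had a median r of -0.03, from -0.10 to 0.20, and the 15 ranked regulators a median of 0.12, from -0.15 to 0.35. The 11 ranked genes of pyruvate supply had a median of 0.01, from -0.51 to 0.37. Macrophage markers (5 of 5 above 0, median 0.32) also lay towards Pdk4, and testis markers less so (3 of 3, median 0.13). Muscle markers were above 0 for 10 of 12 genes (median 0.05), slow fibre genes for 5 of 8 (0.02) and endothelium markers for 3 of 5 (0.08). Adipocyte, liver and blood markers (0 of 6, 0 of 4 and 0 of 2 above 0) did not lie towards Pdk4.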

How the data were processed

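Total RNA of the gastrocnemius muscle of 24 mice, 1 mouse per array, was hybridised in Cy5 against a common Cy3 pool on 2-colour Agilent arrays without dye swaps. The spot intensities were deposited as Feature Extraction wrote them (version 10.5.1.1 per the file headers). The authors also deposited a table of 20721 rows, in which Cy5 log2 values were normalized against Cy3 after removal of spots with a signal under 2 times background; it was used only as an alternative for cHF+F against cHF, and 8 of its columns, named for another diet, were not used.

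Here, median spot signals were background-corrected (normexp, offset 50) and loess-normalized within arrays (span 0.3) with limma 3.58.1 in R 4.3.3. Control spots and flagged outliers were left out and spots of a probe averaged. Probes were kept with a mean signal of at least 2 times background in both channels and at least 4 unflagged arrays per group, which left 15958 of 41174. Groups came from the labels, and 1 limma model over the 3 groups gave 3 contrasts with Benjamini-Hochberg adjustment over all kept probes. A gene was represented by its brightest probe in lists. The number of arrays and their signal over background limit the precision.

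Replicate numbers are slide numbers. Same-numbered mice deviated together in 18 of 24 pairs at r over 0.1 (range -0.11 to 0.64), and the slide was used as a block in an alternative. Members and lists were chosen with earlier results of these data known. Named were all members, the 3 genes of smallest p per list and comparison, and the 5 genes most and the 5 least like Pdk4, among genes well above background on at least 20 arrays. Scripts were tested on simulated data. Promoter bases were taken from RefSeq (GRCm38.p6) and probe positions from the files (mm8).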

Additional observations from a re-analysis of the deposited data

Results flagged for a closer look

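Of 45 sets of 8 mice (15 probes in 3 groups), 7 held a mouse whose gap to the next, as a share of the range of its group, was past Dixon's 95% limit, where chance gives about 1 in 20 sets, or 2.25. The mouse of slide 1 stood apart in 4 of the 7. It was the highest for the brighter Pdk1 probe with cHF (ratio 0.74, gap share 0.667) and with cHF+F (0.35, gap share 0.572), the lowest for Pdk2 with cHF (-0.55, gap share 0.582), and the highest for the dimmer Dlat probe with cHF+F (0.43, gap share 0.583). The others were the cHF mouse of slide 6 for the second Pdhb probe (0.39, gap share 0.623), the cHF mouse of slide 8 for the brighter Dlat probe (-0.24, gap share 0.533) and the cHF+ROSI mouse of slide 5 for the dimmer Pdhx probe (0.18, gap share 0.623). No mouse stood apart for Pdk4 in any of the 3 groups.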

How the results depend on the processing

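Pdk4 stayed lower than in cHF under every alternative run, by -1.54 to -0.80 with n-3 LC-PUFA and by -1.22 to -0.59 with rosiglitazone. The exact permutation p was 0.0028 to 0.0334 for the first, and for the second it was lost from Cy5 alone (0.11). Member probes with an unadjusted p under 0.05 in cHF+ROSI against cHF numbered 1 in place of 2 with mean spot signals, median centring, array weights, the methods' t-test and without slides 1 to 3 (Pdk2, with Pdk4 at -0.65), 0 from Cy5 alone, and 1 to 2 when each mouse was left out. In cHF+F against cHF+ROSI they numbered 0 at first, 1 with the replicate block as a fixed term (Pdk1), 2 without slides 1 to 3 (Pdk2 and Pdk4), and 0 to 1 when each mouse was left out (1 without the cHF+F mouse of slide 7). With array weights the Pdk4 difference between the supplemented groups turned to 0.017.

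With the replicate block, 5 member probes had an unadjusted p under 0.05 in the Cy3 channel for cHF+ROSI against cHF, in place of 0. With the replicate block as a fixed term, probes of the whole array with an unadjusted p under 0.05 numbered 1941, 1522 and 2095 in place of 1096, 751 and 1062 (cHF+F and cHF+ROSI against cHF, then directly), and those called at an adjusted p under 0.05 numbered 6, 0 and 0 in place of 0. As a random effect the block gave 20, 0 and 7 such calls, and array weights gave 13, 0 and 0, with 0 member probes among any of them. The block changed no other call of a member. Within cHF, 1 relation of Pdk4 (Dld) had an adjusted p under 0.05, in place of 0. The fasting list had 14 lower genes in place of 9 in cHF+F against cHF+ROSI with median centring. The likeness to Pdk4 turned to -0.0677 for Lamtor3 from Cy5 alone, and to 0.111 for Lrig1, 0.307 for Cacng6 and 0.191 for Adcy9 with median centring. These settings for the likeness and the fasting list were chosen after seeing the data, and the causes were not tested.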
